A study of Homo sapiens with 6 samples.

Results

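The 9 genes described here encode proteins that lengthen the centriole or cap its growing end: CENPJ, CEP120, CNTROB, SPICE1, HYLS1, MDM1 and C2CD3 on the elongation side, and CCP110 and CEP97, which form the cap. They were chosen by gene name, and each matched 1 row of the 58735 genes in the table. Messenger RNA was sequenced from the human line RPE-1, of retinal pigment epithelial origin, in which CETN2, a centriole protein, is tagged with GFP and PLK4, the kinase that starts centriole duplication, sits behind a doxycycline-inducible rtTA promoter. There were 3 libraries from cells given a scramble siRNA (siControl) and 3 from cells given one that targets SON, a splicing factor (siSON), and PLK4 was induced with 1 µg/mL doxycycline in all 6. No label says that replicates came from separate cultures, so the p-values measure the spread between these libraries, which may be technical. The comparison asked how mRNA levels differ when SON is depleted in cells in which PLK4 is induced. Centriole number was not measured in these data.

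A new centriole starts as a short cartwheel and grows when microtubules are added to its wall. CPAP, the product of CENPJ, binds tubulin and acts with CEP120, SPICE1 and centrobin (the product of CNTROB) to extend that wall. CP110, the product of CCP110, sits with CEP97 on the distal end, where the pair limits lengthening and must leave the mother centriole before a cilium can form. HYLS1 stabilises centrioles and is needed for cilia, MDM1 binds microtubules and restrains duplication, and C2CD3 acts at the distal end in elongation and appendage assembly.

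Because SON acts in splicing, exon junctions are shown first for the 3 genes with the largest falls and the 2 with the largest rises among those whose coding sequence holds an intron. Each line spans the shortest coding intron of the gene's principal transcript in GENCODE release 29 (GRCh38), 15 bases of exon on each side, 5′ to 3′, with the last 3 bases of the upstream exon in capitals; the intron itself lies between those capitals and the following letter.
CNTROB: gttccccagagaGAGgtggagatgggctta
MDM1: acatcaaaggctTGGgaaggtgaattccga
CCP110: actagatggtctCAAgtttttagtctggaa
CEP97: tatcccaggaaaGTGaacccgtcattcaag
CENPJ: ccagaccaaagaGTGatctactactatgca
The removed introns were intron 16 of CNTROB (chr17:7948328-7948486, plus strand, 159 bp), intron 6 of MDM1 (chr12:68321447-68321524, minus strand, 78 bp), intron 8 of CCP110 (chr16:19542761-19542877, plus strand, 117 bp), intron 8 of CEP97 (chr3:101757197-101757633, plus strand, 437 bp) and intron 14 of CENPJ (chr13:24884246-24884322, minus strand, 77 bp). Of these 5 exon ends, only that of CNTROB closes with the consensus AG. At the shortest coding introns of CEP120 and SPICE1, not shown, the exon ends were CAG and GAG. Over all 139 introns of the 9 genes 66.2% of exon ends were AG, beside 56.1% over protein-coding genes tested, so these junctions do not stand for the whole genes. The choice for CENPJ was a tie, because its intron 15 is also 77 bp long and the exon before it ends in TAG. The table holds counts per gene, so whether any of these introns was removed correctly was not measured.

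The cap genes moved in opposite directions, and the 250 bases before their RefSeq start sites (GRCh38.p14) are shown to set the promoters side by side, 5′ to 3′ on the plus strand. Capitals mark matches, on either strand, to CCGGAAG (an ETS-family core), CCAAT (the NF-Y box) or TTTGAA (the cell-cycle homology element).
CCP110: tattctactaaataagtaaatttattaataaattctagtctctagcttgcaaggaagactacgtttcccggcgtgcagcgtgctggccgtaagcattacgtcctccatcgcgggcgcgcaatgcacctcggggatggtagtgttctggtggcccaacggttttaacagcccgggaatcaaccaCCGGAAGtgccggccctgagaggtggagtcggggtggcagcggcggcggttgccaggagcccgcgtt
CEP97: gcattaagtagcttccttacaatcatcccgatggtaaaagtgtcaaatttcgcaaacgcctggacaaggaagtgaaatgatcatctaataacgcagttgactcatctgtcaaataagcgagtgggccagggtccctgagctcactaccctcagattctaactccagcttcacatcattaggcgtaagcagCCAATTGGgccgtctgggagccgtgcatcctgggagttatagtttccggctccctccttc
The first window is chr16:19523692-19523941 and the second chr3:101724364-101724613. GENCODE starts CCP110 at 19523811 and CEP97 at 101723925. By that annotation the first window lies partly, and the second wholly, inside the gene. CCP110 had 1 match to CCGGAAG, and CEP97 had 2 matches to CCAAT that overlap each other in a palindrome. Among 35116 RefSeq windows of this length, 8.52% held CCGGAAG, 32.0% held CCAAT and 13.3% held TTTGAA, which neither cap gene had. The other members with a RefSeq window are given with their direction. SPICE1 had no window. C2CD3 (not called) had 2 matches to CCGGAAG, and MDM1 (lower) and HYLS1 (higher) had 3 each to CCAAT. CNTROB (lower) had overlapping windows that share 1 match to CCGGAAG, and only 1 of these windows also held CCAAT. CENPJ (higher) and CEP120 (lower) had none. These matches describe letters only, and any part of the motifs in the changes was not tested.

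Library totals ran from 54572365 to 69764836 counts, and 3 counts, the smallest amount treated as seen, were 0.0430 to 0.0550 CPM (counts scaled to a common library size) before TMM scaling, a floor that covers counting error only. SON itself had 295, 313 and 284 CPM in the siControl libraries and 67.9, 69.9 and 65.0 CPM in the siSON libraries, so that 22.8% of the control level remained (edgeR log2 fold change -2.14, SE 0.06, adjusted p 6.78e-10). Of the retinal pigment epithelium markers, TYR had 0 counts in every library, RPE65 had 6 to 18 in siControl and 0 in siSON, and RLBP1 had at most 7. The other 4 were called and moved in both directions: MITF averaged 21.7 CPM in siControl and 31.1 CPM in siSON, OTX2 19.9 and 35.1, BEST1 8.13 and 12.5, and PMEL 2.06 and 0.200. These 7 markers summed to 51.0 to 52.8 CPM in siControl and 73.9 to 83.3 CPM in siSON. The keratin gene KRT18 averaged 220 and 615 CPM in the 2 groups (called higher), KRT8 594 and 754 (called higher) and the mesenchymal gene VIM 7151 and 6486 (not called). The 7 markers of blood, endothelial, neural and liver cells summed to 11.9 to 12.6 CPM in siControl and 5.23 to 5.93 CPM in siSON, mostly TUBB3, with CD3E and ALB under 3 counts in every library. The part of these markers in the results was not tested.

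After SON depletion 5 of the 9 genes fell (CNTROB, MDM1, CCP110, SPICE1 and CEP120), 3 rose (CEP97, HYLS1 and CENPJ) and C2CD3 did not pass the test. The fall of SPICE1 lost its call in 7 of 14 alternatives and carries the counting limit given below. The threshold for a call was a Benjamini-Hochberg p under 0.05 by the edgeR quasi-likelihood fit to 16591 genes, of which 71.7% were called, 36.5% lower and 35.2% higher, so 8 called of 9 lies near the background share. Scaled by library size alone, 5 were again lower and 3 higher, where 71.1% of all genes were called, 44.3% lower and 26.8% higher. At least a 2-fold fall was called for CNTROB and MDM1, against 20.5% of all genes tested. MDM1 lay close to that line, with log2 fold changes from -1.23 to -0.92 over 15 alternatives. The median log2 fold change of the 9 was -0.27, beside -0.027 over all genes tested. With library size alone the median of the 9 was -0.46, where the median over all genes shifted by -0.197. The siSON and siControl values did not overlap for 8 of the 9, against 75.1% of all genes. RNA came from bulk cultures, in which fewer cells carrying a transcript and less of it per cell cannot be told apart.

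**Figure D1:**
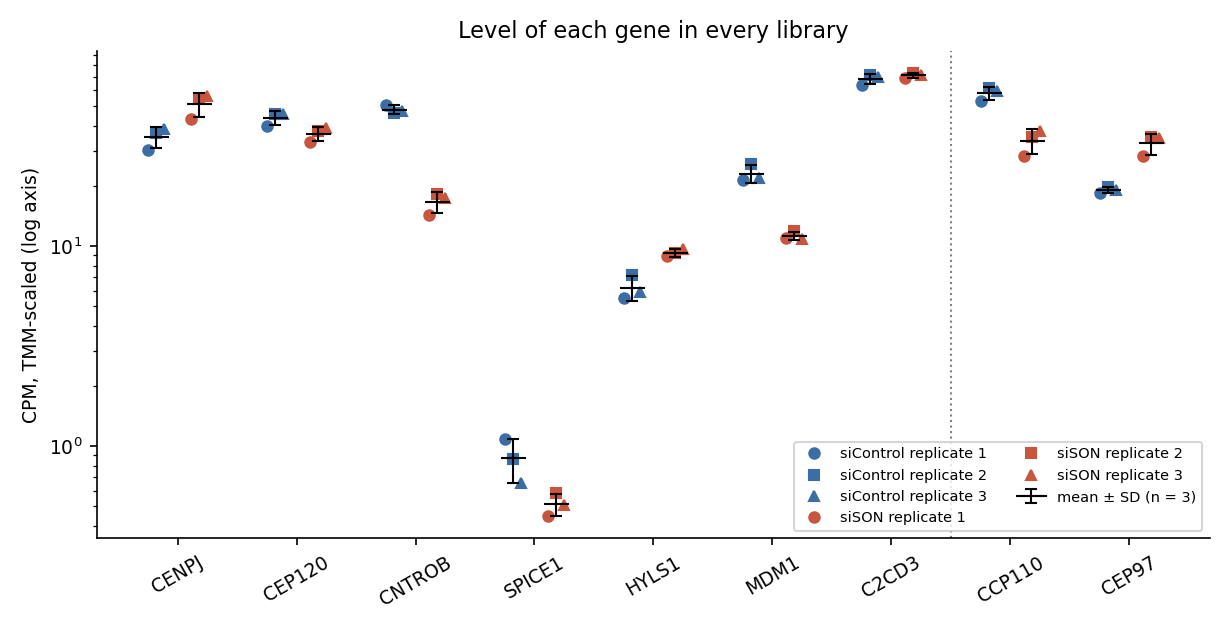
Level of each of the 9 genes in every library, in TMM-scaled CPM on a log axis; points are libraries, bars are mean ± SD (n = 3 per group) and the dotted line separates elongation genes from the cap pair. The groups do not overlap for any gene except C2CD3, and SPICE1 lies near 1 CPM while the others lie above 5 CPM.

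In the order of replicates 1 to 3, kept for all values below, CCP110 had 53.1, 62.0 and 59.3 CPM in siControl and 28.2, 35.1 and 37.5 CPM in siSON. Every siSON library was below every siControl library. The group values were 58.1 ± 4.59 and 33.6 ± 4.78 CPM (SD, n = 3 each), 57.7% of control (log2 fold change -0.79, SE 0.10, edgeR adjusted p 3.28e-05). CCP110 lies on chromosome 16, 19523811 to 19553408, plus strand (ENSG00000103540; 15 exons in its principal transcript), and no other annotated gene overlaps it.

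CEP97, which recruits CP110 to the distal end, went the other way. It had 18.4, 19.8 and 19.1 CPM in siControl and 28.1, 35.0 and 34.7 CPM in siSON, with the lowest siSON library well above the highest siControl library. The means were 19.1 ± 0.693 and 32.6 ± 3.92 CPM (SD, n = 3 each), a 1.71-fold rise (log2 fold change 0.77, SE 0.09, edgeR adjusted p 1.76e-05). CEP97 lies on chromosome 3, 101723925 to 101770562, plus strand (ENSG00000182504; 11 exons), and no annotated gene overlaps it either.

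Because the cap genes moved in opposite directions, their ratio within a library necessarily shifted more than either gene did alone. The ratio of CCP110 to CEP97, each in CPM per kb of annotated exon, was 2.71, 2.95 and 2.93 in the siControl libraries and 0.947, 0.944 and 1.01 in the siSON libraries. All siControl ratios lay above all siSON ratios, and the ratio in siSON was 0.338 of that in siControl. The change on the log2 scale was -1.56, against SDs of 0.067 and 0.059 within the groups. Whether the ratio reaches 1 depends on the length used: with principal transcript lengths it averaged 4.58 in siControl and 1.55 in siSON, while its change between groups is the same.

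CENPJ rose. Its levels were 30.2, 36.8 and 38.4 CPM in siControl and 43.3, 54.4 and 56.0 CPM in siSON, with no overlap. The means were 35.1 ± 4.34 and 51.2 ± 6.92 CPM (SD, n = 3 per group; log2 fold change 0.54, SE 0.11, edgeR adjusted p 0.00123). When scaled by library size alone its log2 fold change was 0.35 (adjusted p 0.0217), past the threshold but over 1.5 times smaller. CENPJ lies on chromosome 13, 24882284 to 24922889, minus strand (ENSG00000151849; 17 exons).

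The partners of CPAP did not follow it. CNTROB, whose product marks daughter centrioles, had 51.0, 46.1 and 47.2 CPM in siControl and 14.4, 18.2 and 17.4 CPM in siSON, a separation far wider than the spread in either group. Its means were 48.1 ± 2.56 and 16.7 ± 2.02 CPM (SD, n = 3 each), which left 34.6% of control (log2 fold change -1.53, SE 0.09, edgeR adjusted p 7.49e-08). At this size of fall CNTROB stood at percentile 12.9 of log2 fold changes over all genes tested, the lowest of the 9. CNTROB lies on chromosome 17, 7932101 to 7949918, plus strand (ENSG00000170037; 19 exons). Its first 23 exonic bases are shared with TRAPPC1, a vesicle-tethering subunit on the other strand, which was higher in siSON (75.8 ± 0.634 and 90.4 ± 2.92 CPM, SD, n = 3 for both, with a change of 0.25 on the log2 scale, SE 0.05, edgeR adjusted p 0.00110).

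CEP120 fell by a smaller amount. It had 40.0, 45.7 and 45.9 CPM in siControl and 33.0, 37.5 and 38.9 CPM in siSON, where the highest siSON library lay just under the lowest siControl library. The means were 43.8 ± 3.35 and 36.5 ± 3.08 CPM (SD, n = 3 each), 83.2% of control (log2 fold change -0.27, SE 0.08, edgeR adjusted p 0.0131). Without siControl replicate 3 the value was -0.24 and the adjusted p 0.0501, which lost the call by a small margin. The adjusted p was 0.0452 without siControl replicate 2 and 0.0442 without siSON replicate 1, so the call was marginal with fewer libraries. With library size alone the value was -0.46 (adjusted p 0.000688). CEP120 lies on chromosome 5, 123344885 to 123423592, minus strand (ENSG00000168944; 20 exons).

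SPICE1 was counted thinly, with 76, 55 and 49 counts in siControl and 26, 30 and 26 in siSON. In CPM these were 1.09, 0.865 and 0.656 against 0.448, 0.582 and 0.511, so the groups did not overlap but came close (0.870 ± 0.217 and 0.513 ± 0.0669 CPM, SD, n = 3 per group; log2 fold change -0.76, SE 0.29, edgeR adjusted p 0.0351). The call was lost without siControl replicate 1 (-0.59, adjusted p 0.125), siControl replicate 2 (-0.78, adjusted p 0.0675), siSON replicate 1 (-0.65, adjusted p 0.0985) or siSON replicate 3 (-0.75, adjusted p 0.0743), and under cyclic loess normalization (-0.22, adjusted p 0.456). SPICE1 lies on chromosome 3, 113442718 to 113515187, minus strand (ENSG00000163611; 18 exons), and 100% of its coding bases are also exons of AC112128.1, a longer protein-coding model on the same strand that had 13 to 33 counts per library. How the authors' counting assigned reads in exons of 2 genes is not given in the sources used here, so neither the level nor the change of SPICE1 can be read as that of its mRNA.

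MDM1 had 21.3, 25.7 and 21.9 CPM in siControl and 11.0, 11.9 and 10.8 CPM in siSON. The siSON libraries lay close together and far under the controls, with means of 23.0 ± 2.40 and 11.3 ± 0.576 CPM (SD, n = 3 each), 48.9% of control (log2 fold change -1.03, SE 0.09, edgeR adjusted p 1.88e-06). MDM1 lies on chromosome 12, 68272443 to 68332381, minus strand (ENSG00000111554; 14 exons), with no overlapping gene.

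HYLS1 rose from 5.49, 7.15 and 5.93 CPM in siControl to 8.90, 9.19 and 9.70 CPM in siSON. The groups were apart, with means of 6.19 ± 0.864 and 9.26 ± 0.401 CPM (SD, n = 3 per group; log2 fold change 0.58, SE 0.12, edgeR adjusted p 0.000969). With library size alone the log2 fold change was 0.38 (adjusted p 0.0150). HYLS1 lies on chromosome 11, 125883614 to 125900648, plus strand (ENSG00000198331; 3 exons, with no intron inside the coding sequence). PUS3, a pseudouridine synthase gene that crosses the HYLS1 span on the other strand without sharing exon bases, had a log2 fold change of 0.56 (SE 0.09, edgeR adjusted p 0.000133).

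C2CD3, the highest of the 9 in CPM, had 63.9, 71.9 and 70.1 CPM in siControl and 68.9, 73.2 and 71.6 CPM in siSON. The groups overlapped, with means of 68.7 ± 4.18 and 71.2 ± 2.14 CPM (SD, n = 3 per group; log2 fold change 0.05, SE 0.06, edgeR adjusted p 0.461). Its sign depended on the scaling and was negative with library size alone (-0.14, adjusted p 0.0720) and under cyclic loess normalization (-0.14, adjusted p 0.0627). C2CD3 lies on chromosome 11, 74012714 to 74171210, minus strand (ENSG00000168014; 31 exons), and shares 0.891% of its exonic bases with PPME1 on the other strand.

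**Figure D2:**
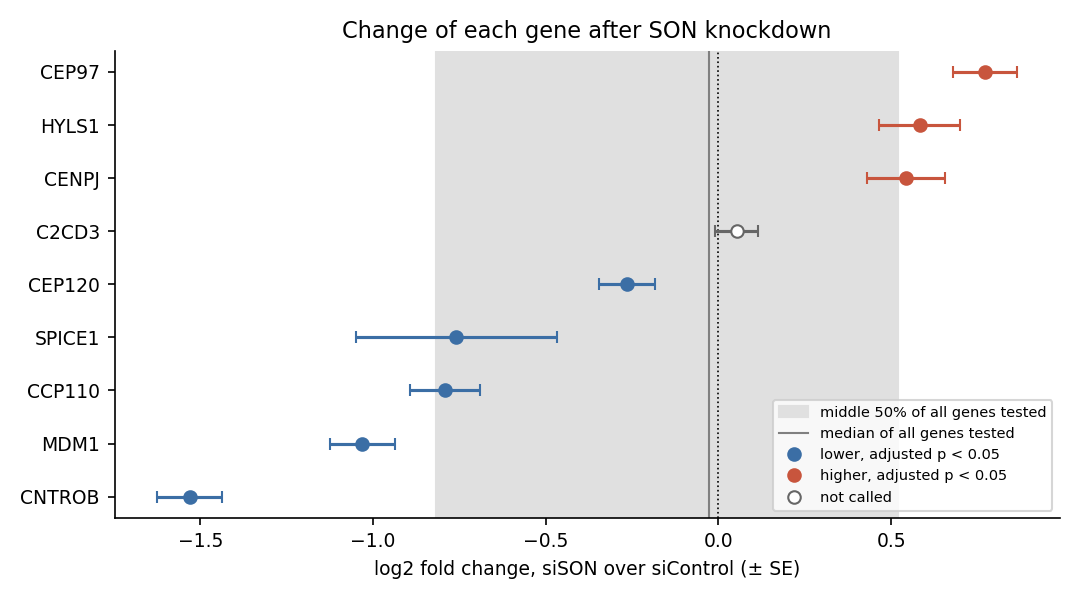
Log2 fold change of each gene, siSON over siControl, with its SE from edgeR; the grey band is the middle 50% of all genes tested (-0.82 to 0.52) and the grey line their median. CNTROB and MDM1 lie below the band, CEP97, HYLS1 and CENPJ above it, and the other 4 inside it.

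Levels were compared between genes in CPM per kb of annotated exon. In siControl the order was CNTROB (7.72 ± 0.411), CEP120 (7.24 ± 0.552), CENPJ (6.05 ± 0.747), CCP110 (5.73 ± 0.453), C2CD3 (5.46 ± 0.333), MDM1 (3.51 ± 0.367), HYLS1 (2.06 ± 0.288), CEP97 (1.999 ± 0.0726) and SPICE1 (0.110 ± 0.0273; SD, n = 3 each). Neighbours from CNTROB down to C2CD3 overlapped in their libraries, as did HYLS1 and CEP97, whereas MDM1 and SPICE1 were apart from the genes above them. In siSON CENPJ led at 8.82 ± 1.19, followed by CEP120 at 6.03 ± 0.508 and C2CD3 at 5.67 ± 0.170, of which the last 2 overlapped. CEP97 (3.41 ± 0.411), CCP110 (3.31 ± 0.472) and HYLS1 (3.09 ± 0.134) then overlapped one after the other. CNTROB (2.67 ± 0.325), MDM1 (1.72 ± 0.0879) and SPICE1 (0.0647 ± 0.00842; SD, n = 3 each) closed the order, each apart from the gene above. CNTROB thus went from place 1 to place 7. Per kb of principal transcript CNTROB was again in place 1 in siControl but in place 5 in siSON, and CEP97 was in place 8 and then 7. By that length C2CD3, CCP110, CEP120 and CENPJ took places 2, 3, 4 and 5 in siControl, so the order of these genes depends on the length used.

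**Figure D3:**
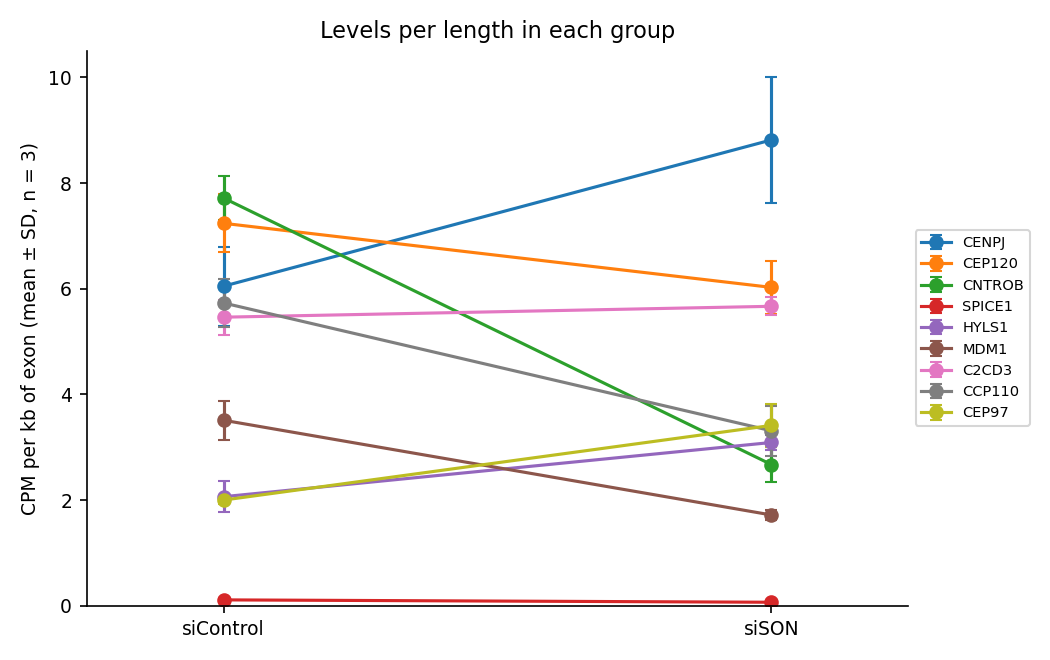
Mean level per kb of annotated exon in siControl and siSON, with SD over 3 libraries; each line joins the values of 1 gene. CNTROB falls from 7.72 to 2.67 and CENPJ rises from 6.05 to 8.82, while CCP110 and CEP97 meet near 3.3.

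Ratios were formed for 6 pairs whose products are known to act together. CENPJ to CEP120 went from 0.788, 0.840 and 0.873 in siControl to 1.37 to 1.51 in siSON, a 1.75-fold change. CENPJ to CNTROB went from 0.636, 0.856 and 0.873 to 3.23, 3.21 and 3.45, a 4.22-fold change and the largest of the 6. Both ratios moved without overlap, CPAP's gene gaining on each partner. CEP120 to C2CD3 went from 1.30, 1.32 and 1.36 to 0.995, 1.06 and 1.13. CENPJ to SPICE1 rose 2.43-fold without overlap, while CEP120 to SPICE1 overlapped between the groups; both carry the counting limit of SPICE1. In 2-sided exact permutation tests over the libraries 5 pairs reached p = 0.1, the smallest that 3 against 3 can give, and CEP120 to SPICE1 had p = 0.2 (Benjamini-Hochberg 0.12 and 0.2 over the 6), so no ratio could pass 0.05.

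**Figure D4:**
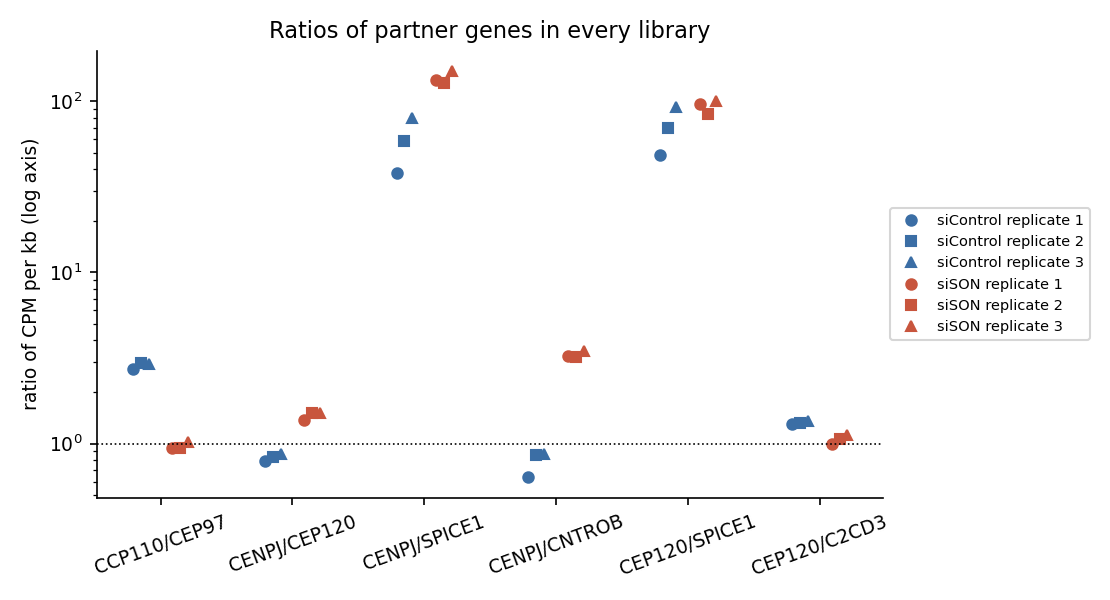
Ratio of 2 genes, each in CPM per kb of annotated exon, in every library on a log axis; marker shapes are replicates and the dotted line is a ratio of 1. CCP110/CEP97 falls to about 1 in siSON and CENPJ/CNTROB rises above 3, whereas CEP120/SPICE1 overlaps between the groups.

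Within a group, replicate 1 was the lowest library for most of the 9. Among the siSON libraries replicate 1 was the lowest for 8 genes, all but MDM1, against 37.9% of all genes tested. Among the siControl libraries it was the lowest for 7, all but CNTROB and SPICE1, against 37.8% of all genes. The spread within siSON was widest for CCP110 (coefficient of variation 14.2%) and CENPJ (13.5%), and narrowest for C2CD3 (3.0%) and HYLS1 (4.33%). The CCP110 to CEP97 ratio, taken inside a library, was lowest for replicate 1 in siControl (2.71, against 2.95 and 2.93) and not in siSON.

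The genes differ widely in structure. Principal transcripts had 3 (HYLS1) to 31 (C2CD3) exons, with a median of 17 beside 9 over 12702 protein-coding genes tested that have introns. CNTROB had the shortest median intron, 394 bp (percentile 13.3 of those genes), and the highest GC content, 58.7% (percentile 80.1). CEP97 and CCP110 had the lowest GC content, 37.0% and 38.5% (percentiles 4.18 and 8.88). CEP97 rose and CCP110 fell, and any part of GC content in these changes was not tested. Median introns of the other members ran from 1055.5 bp (CENPJ) to 5764 bp (HYLS1).

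CNTROB was the only member with a median intron under 500 bp. In that class 61.2% of 2121 genes were called lower and 22.6% higher, with a median log2 fold change of -0.68. CENPJ, MDM1, CCP110 and CEP97 fall in the class from 1000 to 2000 bp, where 34.4% of 3025 genes were lower and 44.8% higher, and these 4 members divided evenly between falls and rises. CEP120, SPICE1 and C2CD3 fall in the class from 2000 to 4000 bp, where 28.4% of 3179 genes were lower and 48% higher. Of these members CEP120 was lower, SPICE1 was lower with the counting limit given above, and C2CD3 was not called. HYLS1, which rose, is in the class above 4000 bp, where 26.5% of 2795 genes were lower and 45.5% higher. Any part of intron length in the changes of the members was not tested. Exons ended in AG before 92 of the 139 introns of the 9 genes (66.2%), beside 56.1% of 140619 introns over all those genes. The share ran from 42.9% in CCP110 (6 of 14) to 94.7% in CEP120 (18 of 19), and the rising CEP97 (8 of 10) and falling CNTROB (66.7%) both lay between.

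The proteins around these 9 were described from 3 lists written from general knowledge. Of 16 genes whose products bind or control the cap, 12 were called, 6 higher and 6 lower, and their median log2 fold change was 0.11, or -0.09 with library size alone and -0.04 under cyclic loess normalization. The 6 higher include CETN2 (0.38), which is tagged with GFP in this line, so its counts may include the tagged gene. NEURL4, which restrains CP110, fell from 22.5, 23.0 and 24.9 CPM to 3.69, 6.57 and 6.79 CPM (log2 fold change -2.05, SE 0.19, edgeR adjusted p 4.66e-06); 18.3% of its exonic bases are shared with another gene on its strand. KIF24, a kinesin that holds CP110 at the mother centriole, fell by 1.21 on the log2 scale (adjusted p 9.99e-06). USP33, which removes ubiquitin from CP110, rose from 48.6, 51.4 and 52.5 CPM to 109, 112 and 114 CPM (1.14, SE 0.06, edgeR adjusted p 1.69e-08).

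Of 20 genes of the centriole wall, lumen and distal end, 14 were called, 12 lower and 2 higher, with a median of -0.43, and 7 of the 20 fell at least 2-fold. Over all genes 36.5% were lower, 35.2% higher and 20.5% at least 2-fold lower. SFI1, a centrin-binding protein of the distal end, changed by -3.06 on the log2 scale (edgeR adjusted p 8.25e-09), and LRRCC1, of the distal lumen, by -3.01 (adjusted p 1.10e-08). TUBD1 (delta tubulin, of the triplet wall) and CEP350 rose by 1.12 and 0.45 (adjusted p 3.15e-05 and 0.000383). Of 7 genes that start the procentriole, 5 were called, 3 lower and 2 higher, with a median of 0.09 (-0.11 with library size alone and -0.02 under cyclic loess normalization). CEP192, which recruits PLK4, changed by -1.14 (adjusted p 1.03e-06) and PLK4 by -0.36 (adjusted p 0.0143), and CEP85 and CEP63 rose by 0.74 and 0.43 (adjusted p 0.000144 and 0.000267). PLK4 counts hold the native and the inducible gene together. In either direction the shares called in the 3 lists, 75%, 70% and 71.4%, lie near the 71.7% of all genes.

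**Figure D5:**
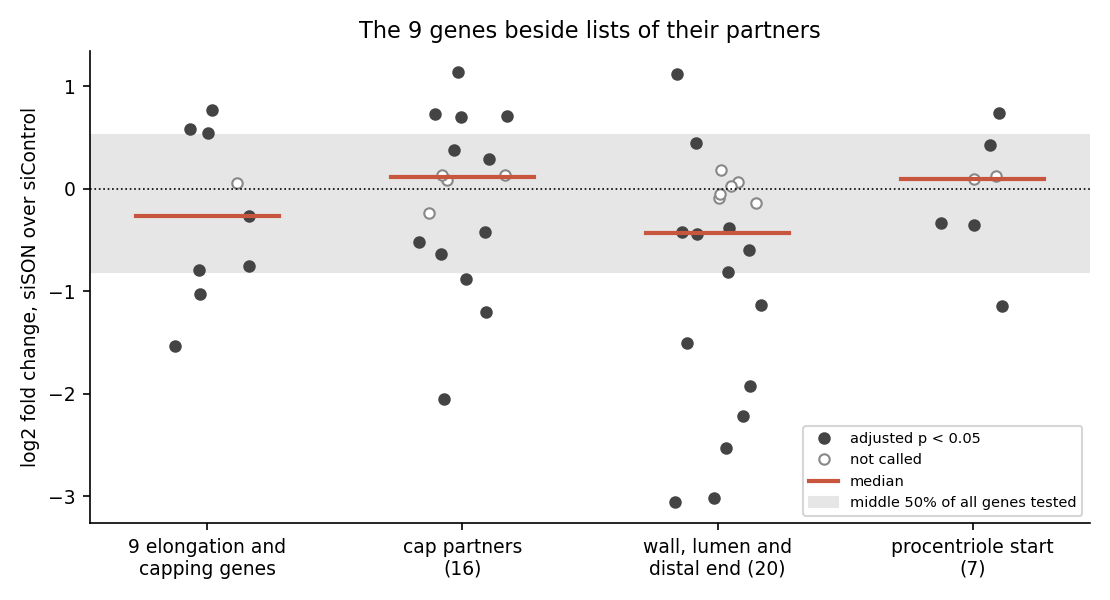
Log2 fold changes, siSON over siControl, of the 9 genes and of 3 lists of partners; each point is a gene, red bars are medians and the grey band is the middle 50% of all genes tested. The wall, lumen and distal-end list reaches lowest, to -3.06 for SFI1, while the cap partners spread to both sides of 0.

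Over the 6 libraries the genes whose log2 CPM ran most like that of CCP110, among 11583 genes, were CASP6, SCLT1 and FZR1 (Pearson r 0.9995, 0.9988 and 0.9987), and for CEP97 NUP155, FKBP7 and KIF5B (0.9995, 0.9983 and 0.9981). The libraries share the group difference, and 1631 and 1748 genes had r above 0.95 with CCP110 and CEP97.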

How the data were processed

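The authors deposited raw read counts per gene, 1 column per library, per the file headers. The submitters' processing notes name cutadapt 1.16, STAR 2.5.2a, featureCounts 1.6.2, DESeq2 1.28.1 and build hg38 without roles; strand, multi-mapping and overlap settings are not given in the sources used here. All 58735 gene identifiers matched GENCODE release 29 (GRCh38), the source of positions, lengths and junctions; promoters are from RefSeq, in which 8 of the 9 genes were matched, CENPJ as CPAP.

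The test was run with edgeR 4.0.16 in R 4.3.3: filterByExpr (minimum count 10), TMM scaling, a robust quasi-likelihood fit on group, Benjamini-Hochberg adjustment over all genes tested, and calls at 0.05. Every adjusted p is from this fit unless another is named. SE is the absolute log2 fold change over the square root of F. CPM uses TMM-scaled library totals. The fit was tested on simulated counts in which few genes changed and all genes shared the same dispersion. That check does not cover a change in most genes, as in these data. Replicates differed by more than sampling noise in every pair (chi-square per degree of freedom 6.68 to 23.6).

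The principal transcript is that with the best APPRIS tag, then the longest coding sequence. The named genes are SON, the 9 genes, in each list the 2 called genes with the largest rises and falls (mean log2 CPM 1 or more), and the 3 genes most correlated with CCP110 and CEP97; TRAPPC1, PUS3, PPME1 and AC112128.1 are named as overlapping genes. One further gene that the rule names is not reported here. Members and lists were chosen with earlier results of these data known. Alternatives were limma-voom (limma 3.58.1), DESeq2 1.42.0, other scalings and filters, a replicate block and the omission of each library.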

Additional observations from a re-analysis of the deposited data

How the results depend on the processing

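The count of changed genes (11888) ranged from 10226 to 12604 over 15 alternatives, and the number of the 9 called (8) from 7 to 8. CCP110, CEP97, CENPJ, CNTROB, HYLS1 and MDM1 kept their direction and their call in all 15. SPICE1 lost its call in limma-voom (-0.72, adjusted p 0.0512), under cyclic loess (-0.22) and with no count filter (-0.76, adjusted p 0.0519), and ranged from -0.94 to -0.59 as libraries were left out; with a mean count of at least 50 it was not tested. CEP120 ranged from -0.35 to -0.18 as libraries were left out and lost its call only without siControl replicate 3 (-0.24). C2CD3, never called, changed sign with library size alone (-0.14), upper quartile scaling (-0.04), cyclic loess (-0.14) and a mean count of at least 50 (-0.00), and ranged from -0.02 to 0.09 as libraries were left out; the causes were not tested. The median log2 fold change over all genes shifted by -0.20 with library size alone and by 0.14 under cyclic loess, where that of CENPJ, CEP120, CCP110 and C2CD3 was lower than with TMM, and higher calls were then 4441 and 6044 beside 7351 and 5640 lower ones, against 5834 higher and 6054 lower with TMM. Same-numbered libraries deviated together with correlations of 0.194, 0.0461 and 0.118, so the numbers were not taken as pairs. Each library nevertheless correlated best with the same-numbered library of the other group. The sample numbers in the column headers also place same-numbered libraries side by side. These are hints, and no label states a pairing. With the replicate block 12313 genes and 8 of the 9 were called, CCP110 at -0.80 and CEP97 at 0.77, and it changed no call among the 9. The block raised the called cap partners from 12 to 15 of 16 (8 higher, 7 lower) and the wall, lumen and distal-end genes from 14 to 15 of 20. The median of the 9 was -0.16 with a mean count of at least 50, where 8 were tested. The ratio of CCP110 to CEP97 stayed between -1.60 and -1.54 (log2) as libraries were left out. The 49 to 76 SPICE1 counts in siControl limit that gene.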
